A study of Mus musculus with 8 samples.

Results

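The genes described here encode the proteins that build, cut, cap, bundle and pull on actin filaments. Of 42 genes named for this group, 38 were found by an exact match of the gene symbol in the platform annotation, and these 38 were among 18194 genes with a probe set of 1 symbol. They had 93 probe sets among 45101 in all. Of the 93, 3 were array controls for Actb, 77 of the other 90 passed the filter on dim signal, and every matched gene kept at least 1. To pass, a probe set had to exceed the table's median of log2 6.36 in 4 or more arrays of either subset or both. Actr2, Arpc1b, Arpc3 and Diap1 had no probe set with that single symbol.

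RNA was measured in blood monocytes sorted by the Gr1 epitope (Ly-6C) from C57Bl/6 mice that were 12 weeks old, with no treatment named. The Gr1hi (Ly-6chi) and the Gr1lo (Ly-6clo) subset had 4 samples each, and each sample was a separate sort of leukocytes pooled from 5 mice, so no array stands for a single animal. Affymetrix 3′ expression arrays were used, 1 for each sample, and the labels give an in vitro transcription lengthened from 4 to 64 h. Values are log2 of the deposited intensity, differences are Gr1lo minus Gr1hi, ± gives the SD over the 4 arrays, and each gene is represented by its tested probe set with the highest mean over the 8 arrays.

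Actin filaments grow from a pool of monomers that profilin delivers and thymosins hold back. The Arp2/3 complex, switched on by proteins of the WASP and WAVE families, starts branches on existing filaments, while Ena/VASP proteins and formins lengthen filament ends. Capping proteins stop that growth, cofilin and gelsolin cut filaments, crosslinkers bundle them, and linker proteins and myosins tie them to adhesion sites and to the membrane. In blood monocytes this machinery is known to carry crawling along the vessel wall, passage through it and phagocytosis. Gr1hi cells are the classical monocytes that enter inflamed tissue, and Gr1lo cells the nonclassical monocytes that patrol the endothelium.

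The largest differences were those of single genes from several classes, in both directions, and no class was tested as a whole. Capg, a gelsolin family protein that caps filament ends, was 8.46-fold higher in Gr1hi, and its relative Gsn, gelsolin, was 1.77-fold higher in Gr1hi. In the other direction the membrane motor Myo1g was 1.99-fold, the filament elongators Vasp and Evl 1.86-fold and 1.76-fold, and profilin (Pfn1) 1.66-fold higher in Gr1lo. Myo1g, Vasp and Pfn1 each had 1 probe set, while Evl had 4. Ezrin (Ezr) was 1.62-fold higher in Gr1lo on its brightest probe set and was not called on a dimmer one. All 4 crosslinkers were called higher in Gr1lo, between 1.18-fold and 1.43-fold, where 14.1% of all tested genes were. The call of the smallest, Actn1, was lost without some single arrays. The 5 measured Arp2/3 subunits gave 1 call (20%, against 32.5% of all tested genes), and Actb, Actg1 and Tmsb4x were not called.

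A gene counts as called where its limma p, adjusted by Benjamini-Hochberg, is under 0.05. This was so for 21 of the 38, with 14 higher in Gr1lo and 7 higher in Gr1hi. Over all 11538 tested genes 32.5% were called, 14.1% higher in Gr1lo and 18.5% higher in Gr1hi, against 55.3% of these 38. Subsets were without overlap for 25 of the 38 and for 33.9% of all genes. Of the 38, 7 were called with a difference of at least 1.5-fold, against 9.9% of all genes, and 1 of at least 2-fold, against 3.88%. The median difference of the 38 was 0.11 and that of all genes -0.01, while the median size of the difference was 0.25 and 0.13. Capg ranked 9 among all tested genes by its difference toward Gr1hi, and Myo1g ranked 199 toward Gr1lo. In RNA from a sorted population, fewer cells that express a gene and less of its RNA per cell cannot be told apart. The members are bright, with a median of log2 11.28 to 11.48 by array where the filter stood at 6.36. Their median standard error of the difference was 0.07, against 0.08 over all tested probe sets. The shares called were not adjusted for either, and the members were chosen with earlier results of these data known. The counts are a description and carry no test of the group.

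**Figure D1:**
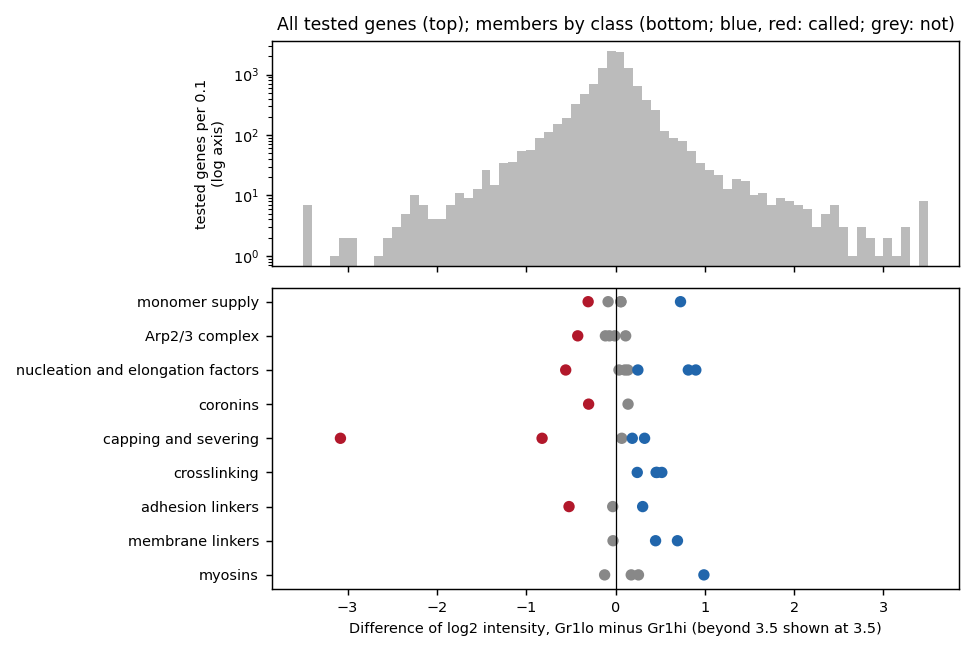
The upper panel counts all tested genes by their difference in log2 intensity, Gr1lo minus Gr1hi, on a log axis, and the lower panel shows the 38 members by class (blue, called higher in Gr1lo; red, called higher in Gr1hi; grey, not called). Capg lies alone at -3.08, and all other members lie between -0.82 and 0.99.

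The array medians lay between 80.5 and 83.0 in intensity, and Pearson correlations of log2 values between arrays of a subset between 0.989 and 0.993. Standard errors of the difference had a median of 0.08 over all tested probe sets and of 0.07 over the members. All 9 monocyte markers with a probe set were tested, and 3 were called higher in Gr1lo and 4 higher in Gr1hi. Besides Csf1r, Cd68 (difference 0.37) and Adgre1 (0.25) were called higher in Gr1lo. Itgam (0.21) and Cx3cr1 (0.32) were not called. Csf1r stood at 13.86 in Gr1hi and 14.06 in Gr1lo and Lyz2 at 14.46 and 14.22, while Ccr2 (difference -1.84), Fcgr1 (-1.22) and Cd14 (-1.12) were lower in Gr1lo, where Cd14 lay between 7.69 and 8.38. Of 9 tested neutrophil markers 4 were called higher in Gr1hi, namely S100a8, Cd177, Mmp8 and Mpo. The summed intensity of that list was 4622 to 5072 in Gr1hi and 793 to 1089 in Gr1lo with Cd177 at 11.27 and 6.56 and Mmp8 at 10.40 and 6.28, and the defining neutrophil gene Cxcr2 lay below the table median in all arrays. Of 4 tested NK cell markers, Gzma and Klrd1 were called higher in Gr1lo (summed intensity 522 to 685 in Gr1hi, 894 to 1147 in Gr1lo), while the mean of the defining receptor Ncr1 lay below the table median in both subsets. Cd79a and Ms4a1, among 4 tested B cell markers, and Flt3, among 3 of dendritic cells, were called higher in Gr1hi. The 10 platelet markers and the 5 tested T cell markers gave no call, and the platelet sum ran from 2600 to 6028 in Gr1hi and from 3018 to 7670 in Gr1lo. The 2 tested red cell markers gave no call either, and the sum of that list ran from 869 to 2976 in Gr1hi and from 939 to 4456 in Gr1lo. The part of these cells in the differences below was not tested. The 3′ minus 5′ signal of the Actb array controls was 0.38 ± 0.05 in Gr1hi and 0.31 ± 0.04 in Gr1lo (n = 4 each, two-sided exact permutation test, p = 0.17, adjusted p = 0.34), and that of Gapdh 0.19 ± 0.13 and 0.12 ± 0.03 (exact p = 0.40, adjusted p = 0.40), where the smallest p of this design is 0.029.

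The stretch of 250 bases before the annotated start is shown for members that the results turn on. They are Capg and Vcl, called higher in Gr1hi, Vasp, Pfn1 and Myo1g, called higher in Gr1lo, and Actg1, which was not called. The sequences are from RefSeq on build GRCm38.p6, run 5′ to 3′ on the strand of the gene and end at the base before its start. Capitals mark matches to any of 7 motifs on either strand.
Capg (chr6:72549397-72549646, plus strand): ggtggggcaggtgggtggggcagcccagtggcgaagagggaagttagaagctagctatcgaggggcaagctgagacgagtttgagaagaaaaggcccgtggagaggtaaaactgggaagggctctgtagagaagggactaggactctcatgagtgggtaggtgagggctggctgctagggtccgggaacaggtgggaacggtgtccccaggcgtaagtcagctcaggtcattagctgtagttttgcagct
Vcl (chr14:20929148-20929397, plus strand): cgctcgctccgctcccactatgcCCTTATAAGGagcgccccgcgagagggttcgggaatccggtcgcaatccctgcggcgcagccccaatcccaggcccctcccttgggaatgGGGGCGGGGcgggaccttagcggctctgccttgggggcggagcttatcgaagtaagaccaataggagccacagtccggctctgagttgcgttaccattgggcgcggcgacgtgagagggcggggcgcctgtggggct
Actg1 (chr11:120348496-120348745, minus strand): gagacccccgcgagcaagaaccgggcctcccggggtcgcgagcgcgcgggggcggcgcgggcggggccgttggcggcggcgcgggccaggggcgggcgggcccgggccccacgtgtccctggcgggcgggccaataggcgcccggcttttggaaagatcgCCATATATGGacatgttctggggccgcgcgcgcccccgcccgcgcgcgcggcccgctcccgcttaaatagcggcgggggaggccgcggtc
Vasp (chr7:19271855-19272104, minus strand): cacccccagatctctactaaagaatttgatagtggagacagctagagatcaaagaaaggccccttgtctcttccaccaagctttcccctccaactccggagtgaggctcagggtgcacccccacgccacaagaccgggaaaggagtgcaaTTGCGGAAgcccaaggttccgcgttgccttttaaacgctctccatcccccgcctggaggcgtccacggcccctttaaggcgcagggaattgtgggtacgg
Pfn1 (chr11:70654651-70654900, minus strand): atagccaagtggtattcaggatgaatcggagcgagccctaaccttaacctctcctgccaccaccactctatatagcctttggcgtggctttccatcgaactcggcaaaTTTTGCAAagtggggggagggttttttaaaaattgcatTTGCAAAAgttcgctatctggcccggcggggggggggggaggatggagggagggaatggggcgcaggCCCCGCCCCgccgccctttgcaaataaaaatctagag
Myo1g (chr11:6520959-6521208, minus strand): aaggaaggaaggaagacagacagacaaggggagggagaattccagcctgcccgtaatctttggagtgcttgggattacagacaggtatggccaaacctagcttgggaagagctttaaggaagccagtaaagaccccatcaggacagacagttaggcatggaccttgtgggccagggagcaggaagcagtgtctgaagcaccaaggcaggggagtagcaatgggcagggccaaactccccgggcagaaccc
Vcl and Actg1 each hold a CArG box, the element bound by serum response factor, a known regulator of actin genes. It lies 227 to 218 bases before the start of Vcl and 90 to 81 before that of Actg1, and a match in Arpc4 was the third among these genes. Of 49 windows of the 39 members in the RefSeq table, 3 held the box (6.12%), against 1.47% of all 32817 windows. The letters TTGCNNAA, written for C/EBP factors, occur once before Vasp and in 2 places before Pfn1. They were found in 10.2% of member windows and 9.57% of all, so near the same share. The members that hold them were Actn1, Evl, Pfn1 and Vasp, called higher in Gr1lo, and Wasf2, not called. Of all 38 members 14 were called higher in Gr1lo, and a link of the motif to the calls was not tested. The GC box GGGGCGGGG was found in 26.5% of member windows and 10.4% of all, and TATAAA in 2.04% and 12.4%. The first holds only G and C and the second only A and T, so their shares depend on base composition. GC content had a median of 52.4% over all windows. It ran from 54.4% (Pfn1) to 79.2% (Actg1) in the windows shown, and was as low as 38.8% in a Wipf1 window. The shares were not adjusted for it. The PU.1 core GAGGAAGT was in 2.04% of member windows and 2.44% of all, the KLF box CCACACCC in 6.12% and 3.19%, and the NR4A element AAAGGTCA in 0 of 49 and in 1.34% of all. The Capg and Myo1g windows held none of the 7. No matches of different motifs overlapped in member windows, and a match describes letters and not a bound site. Actb and Coro1b were not matched in that table.

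Among the proteins of monomer supply, profilin and thymosin beta-10 moved apart while the actins and thymosin beta-4 were not called. Pfn1, which hands ATP-actin to growing ends, stood at 11.56, 11.42, 11.10 and 11.35 in the Gr1hi arrays and at 12.14, 12.16, 12.03 and 12.00 in the Gr1lo arrays. The subsets did not overlap, the Gr1hi arrays spread more widely, and the difference was 0.73 (SE 0.09, adjusted p = 9.8e-05). Tmsb10, a small peptide that holds monomers, stood at 14.08, 14.09, 14.08 and 14.05 in Gr1hi and at 13.81, 13.75, 13.78 and 13.74 in Gr1lo. Every Gr1lo array lay below every Gr1hi array, with a difference of -0.31 (SE 0.05, adjusted p = 0.0011). Both of the dimmer tested Tmsb10 probe sets gave more, -0.85 and -0.93 (adjusted p = 8.3e-06 and 4.7e-06), so the fold toward Gr1hi was between 1.24 and 1.91 by probe set. Its paralogue Tmsb4x stood at 14.16 ± 0.02 and 14.22 ± 0.02, with a difference of 0.06 that was not called (95% interval -0.06 to 0.18). Cytoplasmic beta-actin (Actb) stood at 14.14 ± 0.01 and 14.20 ± 0.03 (difference 0.06, interval -0.06 to 0.18) and gamma-actin (Actg1) at 13.65 ± 0.05 and 13.57 ± 0.03 (difference -0.08, interval -0.21 to 0.04). The arrays of Actb, Actg1 and Tmsb4x did not overlap between subsets although none was called. These probe sets, and the brightest of Tmsb10, lie at the 99.9th percentile of mean signal or above, and whether differences are compressed there was not tested, so the intervals describe the signal and set no limit on the RNA. The same limit holds for the brightest probe sets of Coro1a and Cfl1, described below, at the 99.8th and 99.6th percentile. A dimmer Actb probe set was uneven within both subsets, from 9.95 to 10.95 in Gr1hi and from 9.57 to 10.77 in Gr1lo, and was not called.

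Of the Arp2/3 complex, which starts branched filaments, 5 of 8 subunits were measured and 1 was called (20%, against 32.5% of all tested genes). The WD-repeat subunit Arpc1a stood at 9.81, 9.52, 9.50 and 9.34 in Gr1hi and at 9.18, 9.20, 8.95 and 9.14 in Gr1lo. It was 1.34-fold higher in Gr1hi, without overlap (difference -0.42, SE 0.10, adjusted p = 0.0061). The actin-related subunit Actr3 differed by -0.07 (95% interval -0.20 to 0.07), and all 3 of its probe sets lay between -0.08 and -0.06 and were not called. Arpc4, a core subunit, differed by -0.01 (interval -0.14 to 0.12) and Arpc5 by -0.11 (interval -0.25 to 0.02). Arpc2, the other core subunit, differed by 0.11 (interval -0.02 to 0.25, adjusted p = 0.20) on its bright probe set. A dim Arpc2 probe set, at 6.93 and 7.29, was called (difference 0.36, adjusted p = 0.020), and with the mean of the probe sets Arpc2 was called too (adjusted p = 0.018). A pair of probe sets annotated jointly to Arpc1b, the paralogue of Arpc1a, and to the predicted gene Gm5637 lay outside the rule. They differed by -0.02 and -0.18 and were not called (adjusted p = 0.86 and 0.061).

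Among Was, Wasf2 and the WASP partner Wipf1, which act upstream of Arp2/3, Wipf1 was called on its brightest probe set and the others were not. Was, the WASP protein of blood cells, stood at 9.64 ± 0.11 and 9.68 ± 0.09 and was not called (difference 0.04, interval -0.13 to 0.20). Its partner Wipf1, which binds and stabilises WASP, stood at 10.78, 10.68, 10.76 and 10.82 in Gr1hi and at 10.06, 10.36, 10.20 and 10.18 in Gr1lo. Without overlap it was 1.47-fold higher in Gr1hi (difference -0.56, SE 0.07, adjusted p = 1.2e-04), and its other probe set was called the same way at -0.21. Wasf2, a WAVE protein that links Rac to Arp2/3, differed by 0.10 (adjusted p = 0.27) on the bright probe set, while the dimmer one was called higher in Gr1lo at 0.28, as was the mean of both.

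The Ena/VASP proteins add monomers to filament tips and hold off capping. Vasp stood at 9.96, 9.91, 9.76 and 9.85 in Gr1hi and at 10.75, 10.85, 10.81 and 10.66 in Gr1lo (difference 0.90, SE 0.07, adjusted p = 1.7e-06). Evl, the Ena/VASP-like protein, stood at 10.73, 10.62, 10.66 and 10.72 in Gr1hi and at 11.54, 11.48, 11.60 and 11.38 in Gr1lo (difference 0.81, SE 0.07, adjusted p = 2.9e-06). For both genes the lowest Gr1lo array lay well above the highest Gr1hi array. All 4 Evl probe sets were called higher in Gr1lo, by 0.65 to 0.81. The third family member, Enah, was near the table median with 1 of 6 probe sets tested, at 6.91 and 7.04 (difference 0.14, adjusted p = 0.29). The formin Fmnl1 was called 1.19-fold higher in Gr1lo (difference 0.25, SE 0.08, adjusted p = 0.030). That call was lost without Gr1hi replicate 2, 3 or 4 or Gr1lo replicate 1 or 3 (adjusted p 0.017 to 0.086 over all alternatives).

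Of the 2 coronins, which bind filaments and help take Arp2/3 branches apart, 1 was called, against 32.5% of all tested genes. Coro1b stood at 11.48, 11.28, 11.39 and 11.37 in Gr1hi and at 11.06, 11.14, 11.03 and 11.08 in Gr1lo, 1.23-fold higher in Gr1hi (difference -0.30, SE 0.06, adjusted p = 0.0035). Coro1a, the coronin of leukocytes, was not called on its brightest probe set, although its arrays did not overlap (difference 0.14, interval 0.01 to 0.27, adjusted p = 0.088), nor on the second at 0.12. A dimmer Coro1a probe set, at 7.97 and 8.59, was called at 0.61 (adjusted p = 3.9e-05). Coro1a was also called with the mean of its probe sets, after quantile normalization, with trended and robust variances, and without probe sets that may match several transcripts, which leaves the dimmer one.

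The 5 factors that cap and cut filaments held the largest difference among the members. Capg and Gsn were called higher in Gr1hi, and the capping protein subunits Capzb and Capza1 higher in Gr1lo. Capg, which caps barbed ends in response to calcium without cutting filaments, stood at 11.66, 11.68, 11.70 and 11.65 in Gr1hi and at 8.68, 8.96, 8.10 and 8.65 in Gr1lo. The Gr1hi arrays lay close together (SD 0.02) and the Gr1lo arrays apart (SD 0.36), with Gr1lo replicate 3 the lowest and no overlap. The difference was -3.08 (SE 0.14, 95% interval -3.39 to -2.77, adjusted p = 3.9e-08), 8.46-fold with an interval of 6.81 to 10.5. A second, dim Capg probe set stood at 7.10 in Gr1hi and at 6.05 in Gr1lo, below the table median, and was at least 1.67-fold higher in Gr1hi against that median (adjusted p = 2.6e-04). The mean of both probe sets gave -2.06.

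Gsn, which cuts and caps filaments in response to calcium, stood at 10.78, 10.64, 10.90 and 10.56 in Gr1hi and at 10.09, 9.72, 9.83 and 9.95 in Gr1lo. Each Gr1hi array lay above each Gr1lo array (difference -0.82, SE 0.10, adjusted p = 5.3e-05). The next 3 Gsn probe sets by signal were also called, between -0.93 and -0.84. A dim one passed the filter only through the Gr1hi arrays and is at least 1.41-fold higher there against the table median, and the sixth was too dim to be tested. Cofilin (Cfl1), the severing protein that recycles old filaments, stood at 13.11 ± 0.05 and 13.18 ± 0.05 and was not called (difference 0.07, interval -0.06 to 0.20). The beta subunit of capping protein, Capzb, stood at 12.46, 12.44, 12.33 and 12.44 in Gr1hi and at 12.65, 12.82, 12.80 and 12.71 in Gr1lo. It was 1.25-fold higher in Gr1lo (difference 0.33, SE 0.06, adjusted p = 0.0022), and all 3 of its tested probe sets were called, between 0.33 and 0.36. The alpha subunit Capza1 was 1.14-fold higher in Gr1lo (difference 0.19, adjusted p = 0.039), and its other probe set gave 0.19 without a call (adjusted p = 0.053). The Capza1 call was lost with the replicate block and without any single array other than Gr1hi replicate 4 or Gr1lo replicate 1 (adjusted p 0.0098 to 0.11 over all alternatives). The other alpha subunit, Capza2, from the list of other actin genes, differed by -0.11 and was not called (adjusted p = 0.30), nor was the gelsolin relative Avil (adjusted p = 0.99).

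**Figure D2:**
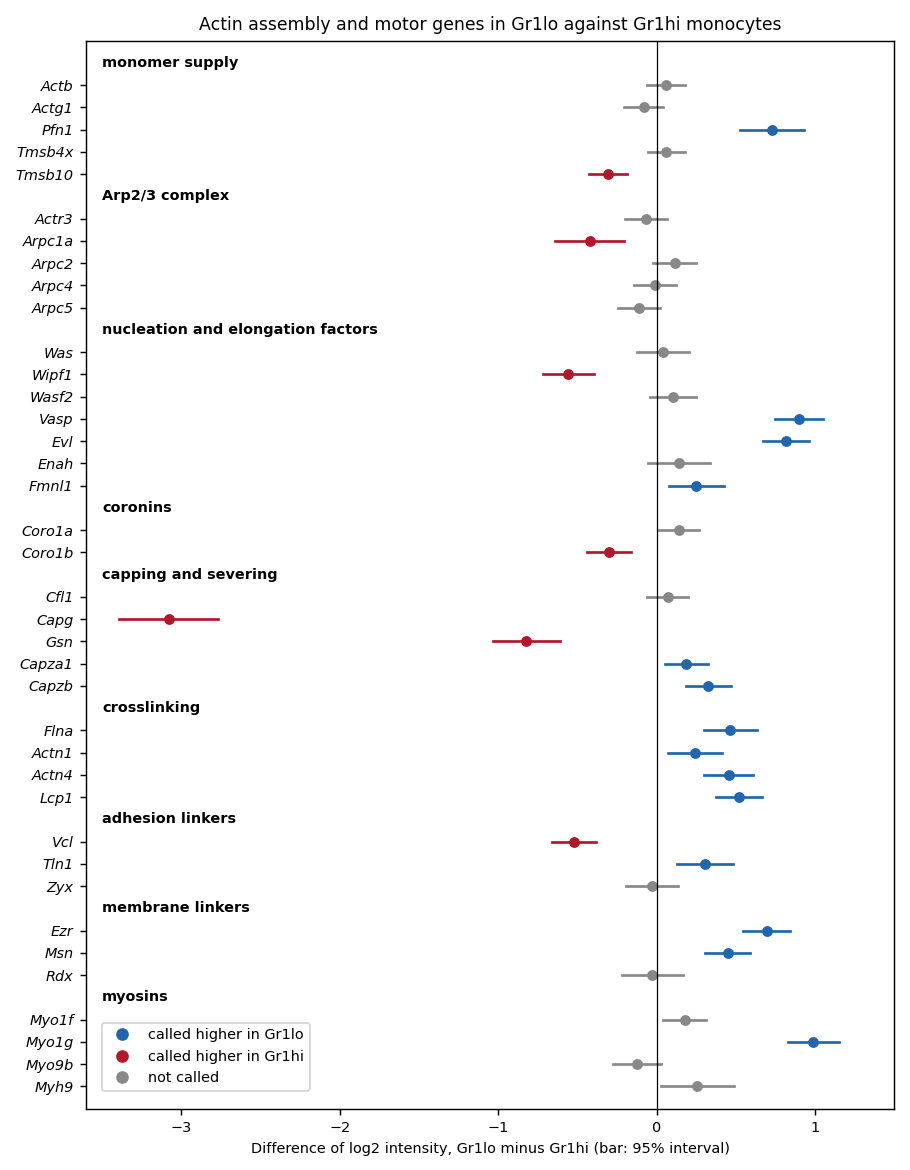
Each point is the difference in log2 intensity (Gr1lo minus Gr1hi) of a member's representative probe set with its 95% interval, by class, from limma on 4 arrays a subset. Capg at -3.08 and Gsn at -0.82 lie to the left, and Myo1g at 0.99, Vasp at 0.90 and Evl at 0.81 to the right, while the Arp2/3 subunits other than Arpc1a have intervals that cross 0.

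The crosslinkers were the class in which every gene was called, 4 of 4 and all higher in Gr1lo, with a median difference of 0.46. Over all tested genes, 14.1% were called higher in Gr1lo and the median difference was -0.01. L-plastin (Lcp1), the bundling protein of leukocytes, stood at 12.30, 12.38, 12.41 and 12.32 in Gr1hi and at 12.88, 12.91, 12.95 and 12.74 in Gr1lo (difference 0.52, SE 0.07, adjusted p = 9.3e-05), and its other probe set gave 0.70. Filamin A (Flna), which ties filaments into gels and binds integrin tails, stood at 11.45, 11.54, 11.65 and 11.75 in Gr1hi and at 11.97, 12.08, 12.14 and 12.05 in Gr1lo (difference 0.46, SE 0.08, adjusted p = 5.8e-04). For Lcp1 and Flna every Gr1lo array lay above every Gr1hi array. The alpha-actinin Actn4 was 1.37-fold higher in Gr1lo (adjusted p = 4.2e-04). Actn1, at 6.78 and 7.03, was close to the table median and its subsets overlapped (difference 0.24, adjusted p = 0.033). The Actn1 call was lost without Gr1hi replicate 2, 3 or 4 or Gr1lo replicate 1 or 3 (adjusted p 0.013 to 0.096 over all alternatives), and its other 2 probe sets were too dim to be tested.

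The adhesion linkers, which join integrins to actin, were divided. Vinculin (Vcl), which reinforces the link under force, stood at 10.45, 10.25, 10.28 and 10.33 in Gr1hi and at 9.76, 9.81, 9.86 and 9.80 in Gr1lo. It was 1.43-fold higher in Gr1hi with no overlap (difference -0.52, SE 0.06, adjusted p = 7.1e-05), and a dim second probe set was not called at -0.13. Talin (Tln1), the integrin activator that recruits vinculin, stood at 10.73, 10.93, 10.97 and 11.10 in Gr1hi and at 11.17, 11.23, 11.29 and 11.25 in Gr1lo. It was 1.23-fold higher in Gr1lo (difference 0.30, SE 0.08, adjusted p = 0.012), and of the dimmer probe sets 1 was called at 0.38 and 1 was not at 0.23. No Gr1hi array reached a Gr1lo array for Tln1. Zyxin (Zyx), a sensor of tension at adhesions, differed by -0.03 (interval -0.19 to 0.13).

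The membrane linkers of the ERM family fasten actin to membrane receptors. Ezr stood at 9.69, 9.61, 9.79 and 9.69 in Gr1hi and at 10.37, 10.37, 10.29 and 10.51 in Gr1lo (difference 0.69, SE 0.07, adjusted p = 1.3e-05). A dimmer Ezr probe set showed no such gap, at 9.10 and 9.13 (difference 0.03, adjusted p = 0.79). Msn, moesin, the ERM protein known to prevail in leukocytes, stood at 12.65, 12.64, 12.60 and 12.81 in Gr1hi and at 13.09, 13.10, 13.17 and 13.13 in Gr1lo (difference 0.45, SE 0.06, adjusted p = 2.3e-04), and its second probe set gave 0.87. The subsets did not overlap for Ezr or Msn on these probe sets. Radixin (Rdx) differed by -0.03 (interval -0.22 to 0.16) and none of its 3 probe sets was called.

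Of 4 myosins, 1 was called (25%, against 32.5% of all tested genes). Myo1g, a short-tailed class I motor of blood cells that tethers the membrane to actin, stood at 11.52, 11.35, 11.47 and 11.65 in Gr1hi and at 12.46, 12.43, 12.58 and 12.47 in Gr1lo. It was higher in each Gr1lo array than in any Gr1hi array (difference 0.99, SE 0.07, 95% interval 0.83 to 1.15, adjusted p = 1.5e-06). Its relative Myo1f, a motor known for neutrophil migration, missed the threshold without overlap of its arrays (difference 0.18, interval 0.04 to 0.31, adjusted p = 0.051). Myo1f was called under 5 of the alternative settings, and the adjusted p over all of them ran from 0.022 to 0.15. Myh9, the heavy chain of nonmuscle myosin II that contracts filaments, differed by 0.26 (interval 0.03 to 0.49, adjusted p = 0.088) on its brightest probe set, where the subsets overlapped. Of the 4 dimmer Myh9 probe sets, 2 were called (0.29 and 0.25, adjusted p = 0.026 and 0.049), and Myh9 was called with the replicate block and with the mean of its probe sets (adjusted p 0.020 to 0.23 over all alternatives). Myo9b, a class IX motor, differed by -0.12 (interval -0.27 to 0.03).

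**Figure D3:**
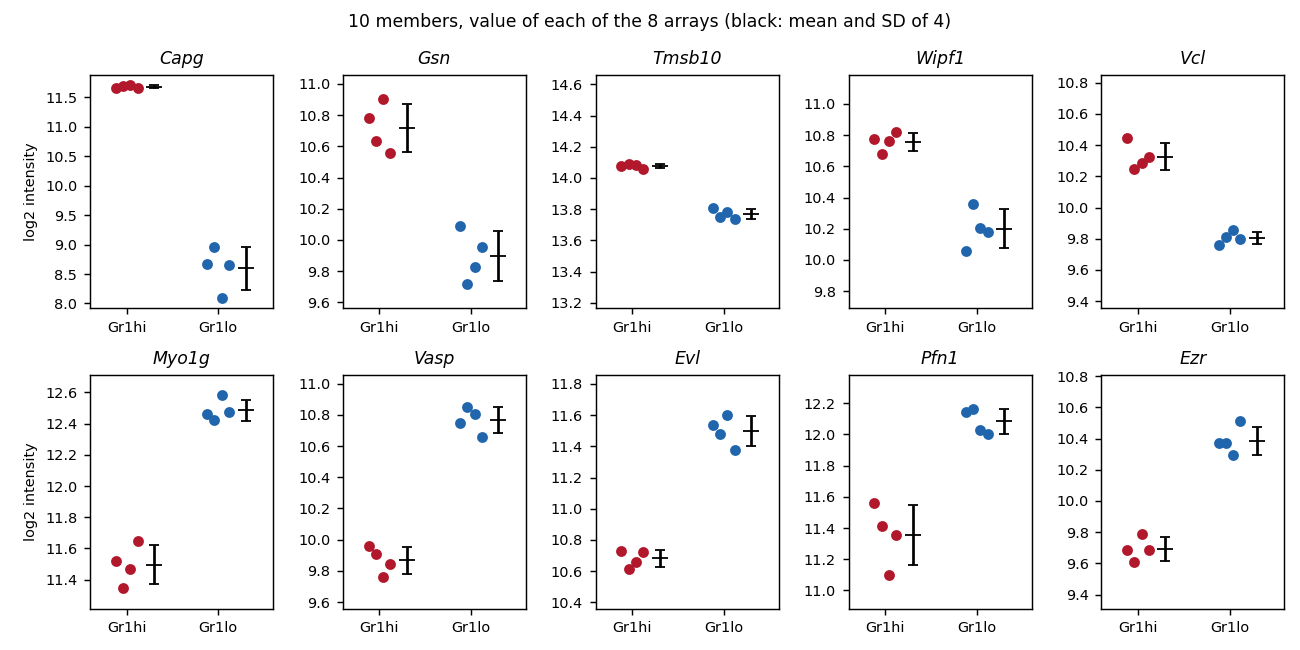
Log2 intensity of 10 members in each of the 8 arrays (red, Gr1hi; blue, Gr1lo; black, mean and SD of 4 arrays), with an axis of its own for each gene. All 10 are called members without overlap, so the separation in the panels follows from the choice of genes. Of all 38 members 25 had no overlap, against 33.9% of all tested genes. Capg shows 4 closely placed Gr1hi arrays from 11.65 to 11.70 above Gr1lo arrays from 8.10 to 8.96.

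The probe sets of a gene did not oppose each other in their calls and differed in size. Of the 38 genes, 24 had several tested probe sets, and none of these had probe sets called in opposite directions. In 8 of the 24 all probe sets were called one way, and in 8 some were called and some were not. Of these 16 genes, 11 had their largest difference on a probe set other than the brightest, among them Tmsb10, Coro1a, Msn and Lcp1, and 5 on the brightest, which were Wipf1, Evl, Capg, Vcl and Ezr. Over probe sets, 27 of 77 were called higher in Gr1lo and 15 higher in Gr1hi, against 15.2% and 15.9% of all tested probe sets (31.2% in either direction). The counts of genes and of probe sets include a dim Gsn probe set that passed the filter only through the Gr1hi arrays. They also include a dim Capg probe set that exceeded the table median in 5 arrays. For such probe sets the direction of the difference was not independent of the filter.

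**Figure D4:**
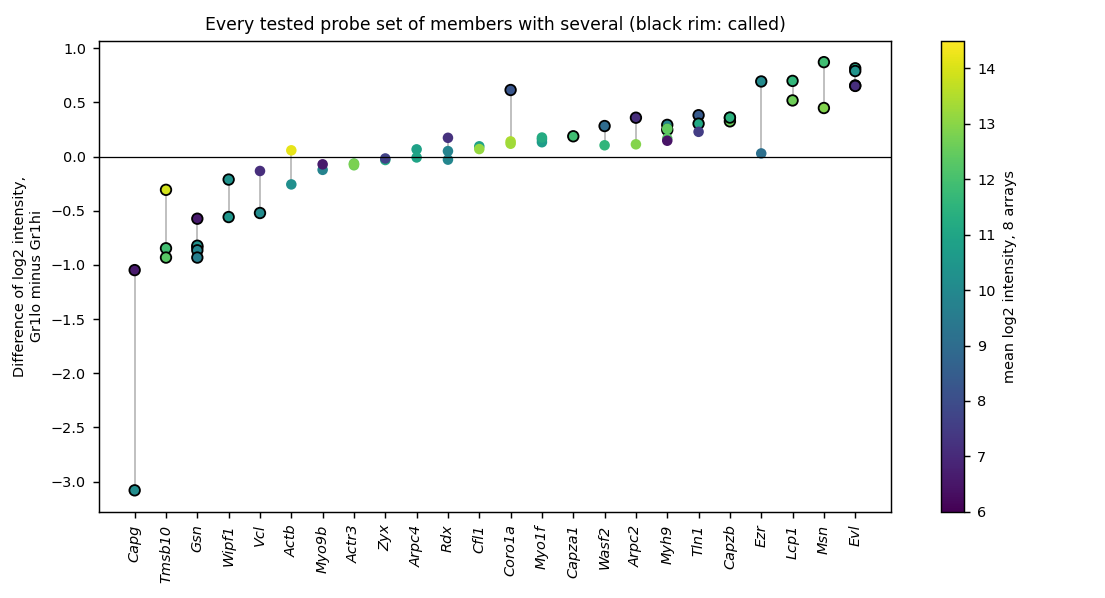
Each point is 1 tested probe set of the 24 members that have several, placed by its difference in log2 intensity (Gr1lo minus Gr1hi) and coloured by its mean log2 intensity, with a black rim where it was called. The brightest Tmsb10 probe set lies at -0.31 and the others at -0.85 and -0.93, and the bright Coro1a probe sets lie at 0.12 and 0.14 below the dimmer one at 0.61.

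Beyond these members, the 6 reported sections of a list of other actin genes, written from general knowledge, held 83 genes, of which 66 were tested. Of these, 21 were called higher in Gr1lo and 12 higher in Gr1hi, 50% in all, against 32.5% of all genes. These counts leave out the section not reported here. The list was chosen with earlier results of these data known, and its shares carry no test. The regulators of Arp2/3 had 6 of 18 called higher in Gr1lo and 5 higher in Gr1hi (61.1% in all). Cyfip2, a subunit of the WAVE complex, was 3.98-fold higher in Gr1lo (difference 1.99, SE 0.11, adjusted p = 1.6e-07), and Abi3, which can serve as another of its subunits, 2.16-fold (difference 1.11, adjusted p = 1.3e-06). Pstpip1, an adaptor that binds WASP, was 1.87-fold higher in Gr1hi and the coronin Coro7 1.49-fold.

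Of 5 formins tested, 2 were called, both higher in Gr1hi (40%, against 32.5% of all tested genes). Inf2, a formin that both builds and severs filaments, was 2.66-fold higher (difference -1.41, SE 0.12, adjusted p = 3.9e-06), and Daam1 1.42-fold. Diaph1, of which Diap1 is an older name in RefSeq, differed by -0.03 and was not called (adjusted p = 0.82). Among 15 monomer, capping and severing factors, 4 were higher in Gr1lo and 2 in Gr1hi, also 40%. The cofilin phosphatases Ssh1 and Ssh2 were 2.08-fold and 1.28-fold higher in Gr1lo, while Dstn, the cofilin relative destrin, was 1.46-fold and the adducin Add3 1.16-fold higher in Gr1hi.

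Of 10 genes listed under crosslinkers and tropomyosins, 4 were higher in Gr1lo and 1 in Gr1hi, Tagln2 at 1.33-fold. Plek, listed there although it is a PKC substrate and not a crosslinker, led at 1.76-fold, before the tropomyosin Tpm4 at 1.47-fold. Of 12 other myosins and light chains, 4 were higher in Gr1lo and 1 in Gr1hi. The class I motor Myo1c was 1.83-fold and Myo18a 1.40-fold higher in Gr1lo, and the vesicle motor Myo5a 1.57-fold higher in Gr1hi. Of 6 adhesion linkers 3 were higher in Gr1lo, led by the parvin Parvg at 1.96-fold and the focal adhesion kinase relative Ptk2b at 1.83-fold, and 1 in Gr1hi, Ilk at 1.24-fold. The shares called in these sections were, in order, 50%, 41.7% and 66.7%, against 32.5% of all tested genes. Sections this small were not tested.

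**Figure D5:**
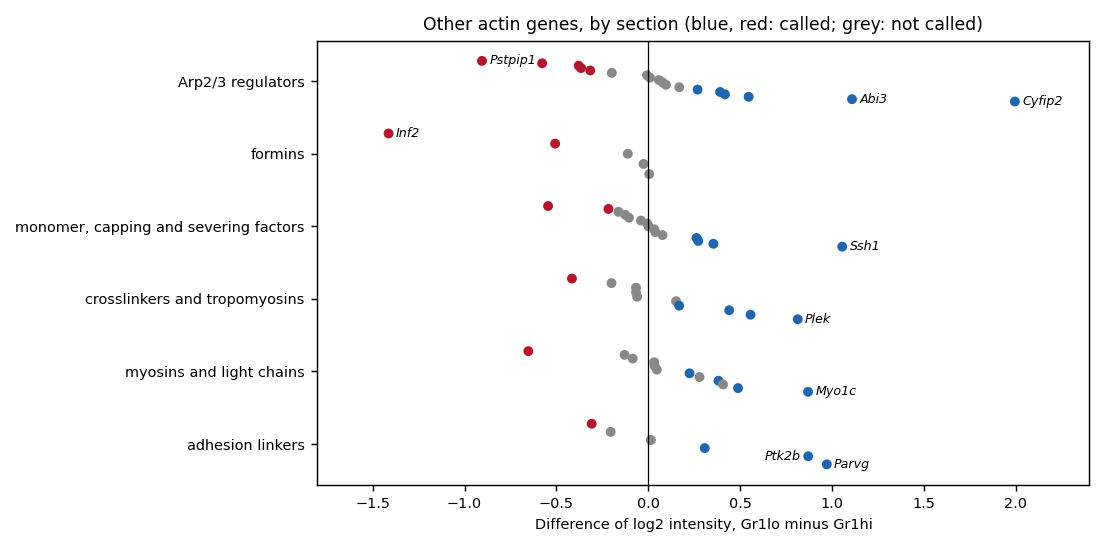
Each point is 1 of 66 other actin genes, placed by its difference in log2 intensity (Gr1lo minus Gr1hi) within its section (blue, called higher in Gr1lo; red, called higher in Gr1hi; grey, not called). Cyfip2 at 1.99 and Inf2 at -1.41 lie farthest out.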

How the data were processed

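RNA of 8 sorted samples was hybridised to Affymetrix GeneChip arrays, per the labels. The authors deposited 1 table of probe set intensity on a linear scale, which was converted here to log2 without a pseudocount. GCRMA and MAS5 appear in the submitters' processing notes, and which of them made the values, and how, is not given in the sources used here. Of 45037 probe sets that are not controls, 34945 have 1 gene symbol in the platform annotation, 932 several and 9160 none, and 22808 (50.6%) passed the filter. The test was that of limma 3.58.1 under R 4.3.3 with lmFit and eBayes, equal weights and no block, two-sided, adjusted over all tested probe sets by Benjamini-Hochberg, with a threshold of 0.05. Intervals are at 95% and unadjusted. The number of arrays limits the precision. Where the dimmer subset lay below the table median, the fold is a bound against it. Members, classes and lists were chosen with earlier results of these data known. Array values are given for members called at 1.5-fold or more and, chosen after seeing the values, for other called members, and in the list of other actin genes the 2 called genes with the largest difference in each direction of a section are named. Diaph1 was named besides. The remaining section of that list is not reported here. Python 3.11.15 and scipy 1.17.1 gave the exact tests. Human arrays of the series were not analysed here. The limma workflow was tested on simulated data. Alternatives were a replicate block, leaving out arrays, other filters, scalings, variance models, weights, probe set choices and a threshold of 0.01.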

Additional observations from a re-analysis of the deposited data

Results flagged for a closer look

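Among 76 groups of 4 arrays (the 38 genes in each subset), 6 had an array far from the other 3 by Dixon's ratio of its gap to the range, and chance gives such a gap in about 1 group in 20. Enah was low in Gr1hi replicate 1, at 6.75 against 6.96 in the others (ratio 0.993), and high in Gr1lo replicate 4, at 7.29 against 6.95 to 6.98 (ratio 0.913). Coro1a was low in Gr1lo replicate 4, at 13.47 against 13.54 to 13.55 (ratio 0.912), and Cfl1 low in Gr1hi replicate 4, at 13.04 against 13.12 to 13.14 (ratio 0.856). Capzb was low in Gr1hi replicate 3, at 12.33 against 12.44 to 12.46 (ratio 0.839). Rdx was low in Gr1hi replicate 1, at 9.71 against 9.95 to 10.00 (ratio 0.832). Of these 5 genes, Capzb was the called one.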

How the results depend on the processing

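Under 20 alternative settings, 17 of the 21 called genes kept their direction and their call wherever they had a value, and none turned direction. Calls were lost for Capza1, Actn1 and Fmnl1 without single arrays and, with Tln1, at a threshold of 0.01, for Capza1 also with the replicate block, and for Capza1 and Actn1 with no filter. Without single arrays the genes higher in Gr1lo numbered 11 to 13, those higher in Gr1hi 7, and the probe sets called 6229 to 6764. Leaving out probe sets that may match several transcripts left 32 genes, without Capg, with 4 higher in Gr1hi, and 4710 probe sets called among fewer tested. With the replicate block 14 and 7 genes were called and 7165 probe sets. The numbers were not taken to pair the samples. Same-numbered samples deviated together for numbers 1 and 2 (correlation of deviations 0.27 and 0.34) and not for 3 and 4 (-0.03 and -0.10). Other pairs ran from -0.41 to 0.55, and 4 of 8 samples, those numbered 1 and 2, correlated best with their own number. For Gr1hi replicate 1 this was a near tie, at 0.273 with Gr1lo replicate 1 and 0.272 with Gr1lo replicate 2. Gr1hi replicate 3 and Gr1lo replicate 4 correlated best with each other (0.29), as did Gr1hi replicate 4 and Gr1lo replicate 3 (0.55). The samples may thus be matched across subsets in another order than their numbers. The replicate block does not follow that order, no fit that does was run, and independence of the samples was not tested. Without both samples numbered 1, an alternative chosen after seeing the data, 13 and 7 genes were called. Signs turned for genes that were not called. With the mean of probe sets these were Actb (-0.10), Arpc4 (0.029) and Rdx (0.065), and without the several-transcript probe sets Actb (-0.26) and Rdx (0.051). Without single arrays Arpc4 ran from -0.035 to 0.017, Zyx from -0.069 to 0.013, Rdx from -0.096 to 0.0096 and Was from -0.00034 to 0.086. The 3′ minus 5′ difference of the array controls ran from -0.08 to -0.04 for Actb and from -0.12 to -0.02 for Gapdh without single arrays. The causes were not tested.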
